A study of Mus musculus with 4 samples.

Results

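The CPEB family comprises 4 genes, Cpeb1 (Entrez gene 12877), Cpeb2 (231207), Cpeb3 (208922) and Cpeb4 (67579). They were picked by gene symbol from the 25206 probe sets of the array, where each has 1 probe set. All 4 had a value on every array, and 3 of the 4 were expressed highly enough to be tested. The samples were RNA from Ter119+ cells taken with magnetic beads from fetal livers of E14.5 mice, and no genotype, strain or number of embryos per preparation is given in the sources used here. The groups were a precipitate made with an anti-Cpeb4 antibody (Cpeb4 IP, 2 arrays from biological replicates), a precipitate made with rabbit IgG (1 array) and total input RNA with no antibody (1 array). Which part of Cpeb4 the antibody binds, and whether it also binds the other family members, is not given in the sources used here.

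CPEB proteins bind the cytoplasmic polyadenylation element, a short uridine-rich sequence in the 3' untranslated region of some mRNAs. Bound to it, they can hold translation back, by recruiting proteins that block the cap or shorten the poly(A) tail, or promote it, by recruiting poly(A) polymerases. Cpeb1 is the founding member, best known from oocytes, while Cpeb2, Cpeb3 and Cpeb4 form a closely related subgroup. Ter119 marks erythroblasts, the maturing precursors of red cells, in which stored and repressed mRNAs matter because the nucleus is later lost. The comparisons ask whether the transcripts of the family came down with Cpeb4 protein. An mRNA bound by Cpeb4 would be sought among those that exceed both controls in the IP. The IgG array measures RNA carried along by any rabbit antibody, and the input array measures the starting RNA.

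Values are log2 expression values as deposited, and differences are IP minus control on the same scale, so that a difference of 1 is a factor of 2. Genes were tested where their mean over the 4 arrays reached 3.84, which left 13911 genes. "Rose" and "fell" are used of genes with a limma adjusted p below 0.05 over all tested genes. The IgG array had a narrower range than the others, with an SD of 1.74 over its probe sets against 2.05 to 2.13. Of the markers of erythroblasts, 8 of 10 were analysed here, and all 8 lay above the median of the input array. Each control was 1 array, so the spread in every test came from the 2 IP arrays alone.

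Cpeb4 and Cpeb2 were the family members higher in both IP arrays than in both controls. Cpeb4, whose protein was the target of the antibody, had values of 10.39 in input and 10.42 in IgG. Its IP values were 10.90 and 10.93, a mean of 10.91 ± 0.02 (SD, n = 2). The IP arrays lay apart from the controls by far more than they differed from each other, and the controls differed from each other by 0.03, no more than the IP arrays did. Cpeb4 rose by 0.50 over IgG (95% interval from limma 0.33 to 0.66, adjusted p = 0.0294) and by 0.52 over input (0.36 to 0.69, adjusted p = 0.0458), in 2 of 2 IP arrays. These are ratios of 1.41 and 1.44.

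Cpeb2 showed the larger difference with the larger spread. It had values of 5.90 in input, 5.88 in IgG and 6.75 and 6.63 in the IP, a mean of 6.69 ± 0.08 (SD, n = 2). Here too the controls were alike, 0.02 apart, and both IP arrays were higher than either. The difference was 0.81 from IgG (interval 0.27 to 1.36) and 0.79 from input (0.24 to 1.33), in 2 of 2 IP arrays. It missed the threshold against each control in limma, with adjusted p = 0.058 and 0.0915, although both intervals, which are not adjusted for the number of genes, lie above 0. With 1 common spread for genes of like level, a test first used in earlier work on these data after they were seen, Cpeb2 passed against IgG (adjusted p = 1.21e-06) and input (adjusted p = 4.68e-06), as did Cpeb4 (3.84e-09 and 1.07e-09). That test called 39.0% of tested genes higher than IgG and 14.7% higher than input. That Cpeb2 differed more than Cpeb4 was not tested.

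**Figure D1:**
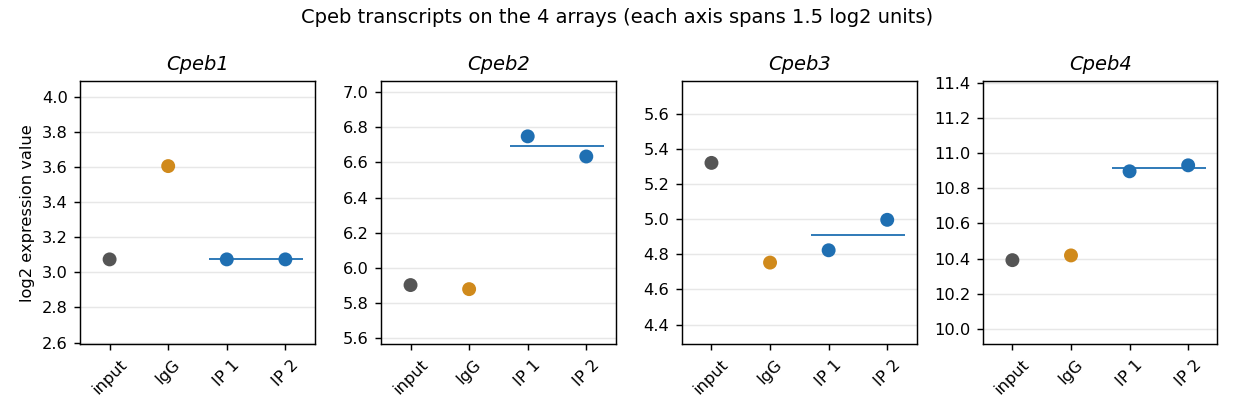
Log2 expression value of each Cpeb transcript on the input array, the IgG array and the 2 Cpeb4 IP arrays, 1 point per array, with a line at the IP mean. Every vertical axis spans 1.5 log2 units but starts at another level. The IP points of Cpeb2 and Cpeb4 lie above both controls, those of Cpeb3 lie between IgG and input, and those of Cpeb1 are at the input value.

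Cpeb3, a close relative of Cpeb4 known from neurons as a regulator of synaptic mRNAs, followed another order. Its highest value was that of input, 5.32, and its lowest that of IgG, 4.75. The IP values of 4.82 and 4.997 (mean 4.91 ± 0.12, SD, n = 2) lay between the controls. The difference from IgG was 0.16 (interval -0.67 to 0.98, limma adjusted p = 0.459) and that from input -0.41 (interval -1.23 to 0.41, limma adjusted p = 0.25), and neither passed the test. IP replicate 1 stood only 0.07 above IgG, less than the 0.17 between the IP replicates. In IgG minus input the value was -0.57, so the position between the controls came with a low value on the IgG array.

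Cpeb1, which directs the polyadenylation of maternal mRNAs in oocytes, was near the low end of the arrays. Its value was 3.07 in input and in both IP replicates, equal on the 3 arrays, and 3.61 in IgG. Its mean of 3.21 was below the level needed for testing. With no filter on low values limma did call it lower than IgG (-0.53, adjusted p = 0.00688). That call rests on an IP spread of 0, since the IP arrays gave the same value, and the difference was -0.18 and -0.21 after other scalings of the arrays. No detection calls were given, so whether Cpeb1 RNA was present cannot be read from these values.

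The share of all genes that behaved like the members sets the background for these counts. Of the tested genes, 29.2% rose over IgG and 17.2% fell, and 9.39% rose over input and 13.3% fell. Those that rose over both were 4.96%, and of the 3 tested members Cpeb4 was the one that did. Both IP arrays lay above both controls for 20.5% of tested genes, and for Cpeb2 and Cpeb4 among the members. Cpeb2 was also at least 1.5-fold above each control in both IP arrays, as were 5.95% of tested genes, and Cpeb4 was not. No member was at least 2-fold above IgG, as 18.6% of tested genes were, or above input, as 4.04% were. The 2 comparisons share the IP arrays and so are not separate evidence.

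**Figure D2:**
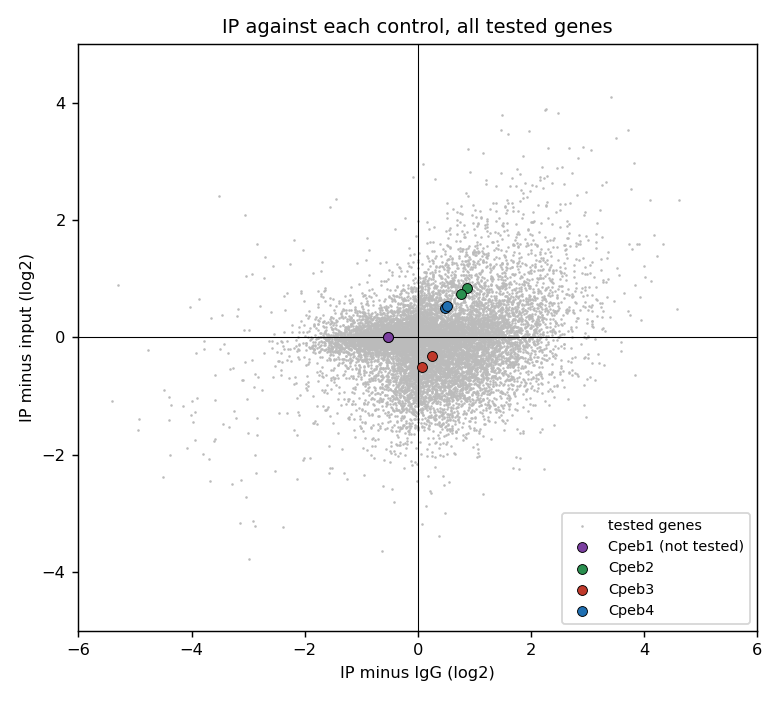
IP minus IgG (horizontal) against IP minus input (vertical), both in log2 units, with each tested gene as a grey point at the mean of the IP replicates and each Cpeb gene as 2 coloured points, 1 per IP replicate. Cpeb2 and Cpeb4 lie above 0 on both axes within the dense part of the cloud, Cpeb3 lies below 0 on the vertical axis, and Cpeb1, which was not tested, lies at 0 on it.

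Against input, Cpeb2 and Cpeb4 ranked higher among all genes than they did against IgG. In IP minus input, 88.4% of tested genes had a smaller value than Cpeb4, 93.0% a smaller value than Cpeb2 and 21.3% a smaller value than Cpeb3. In IP minus IgG the shares were 65.3%, 74.98% and 53.3%. The median over all tested genes was 0.08 against IgG and -0.01 against input.

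How far a gene of the same level usually stood from each control differed between the controls. With the tested genes divided by mean level into 20 groups of equal size, the 696 genes of the highest group, which holds Cpeb4, had a median of 0.54 in IP minus IgG and -0.07 in IP minus input. The 0.50 of Cpeb4 over IgG was thus close to what genes of its level showed, and its 0.52 over input was above it. In IgG minus input Cpeb4 was at 0.03, where the group had a median of -0.64. For the 695 genes in the group of Cpeb2 the medians were 0.58 and -0.13, against 0.81 and 0.79 for Cpeb2 itself. In IgG minus input Cpeb2 stood at -0.02 and its group at -0.71. For the 696 genes in the group of Cpeb3 the medians were -0.03 and 0.00, against 0.16 and -0.41. Genes at the levels of Cpeb4 and Cpeb2 were thus mostly lower on the IgG array than on the input array, while Cpeb4 and Cpeb2 themselves were about equal on both as deposited. That near equality depended on the scaling: in IgG minus input Cpeb4 was at 0.29 and Cpeb2 at 0.46 after quantile normalization of the arrays again, and at -0.33 and -0.38 with array medians equalised.

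**Figure D3:**
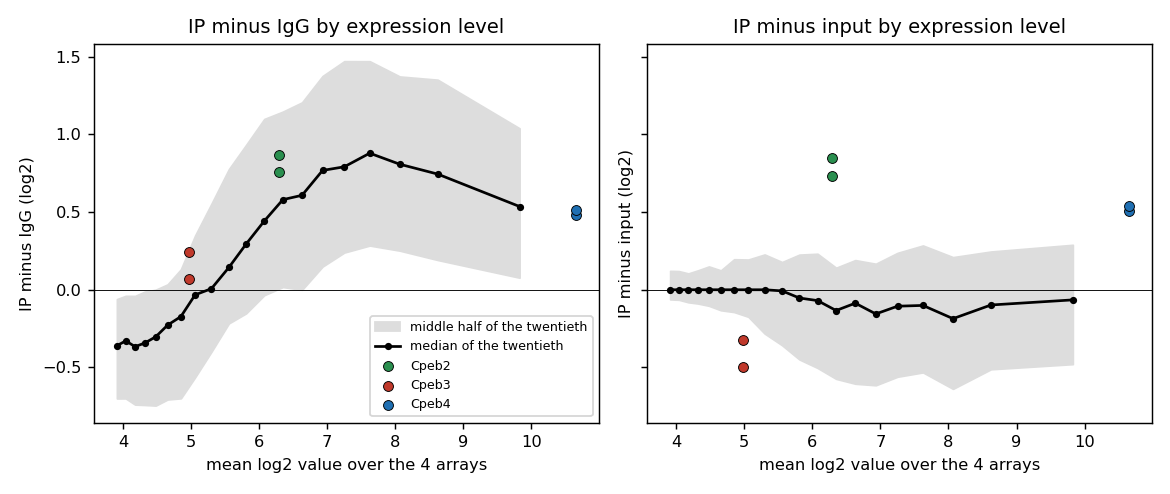
IP minus IgG (left) and IP minus input (right), in log2 units, against the mean log2 value over the 4 arrays. The line joins the medians of 20 equal groups of tested genes and the band their lower to upper quartile, and coloured points are the 2 IP replicates of Cpeb2, Cpeb3 and Cpeb4. Cpeb4 is near the median of its group of 0.54 on the left and above the median of -0.07 on the right.

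The order of the arrays for each gene could also be read on a scale that does not use the arrays' ranges, the percentile of the gene among the named genes of an array. Cpeb4 was at 99.2 in input, 99.4 in IgG and 99.7 and 99.6 in the IP, so it was among the brightest probe sets throughout. Cpeb2 went from 71.2 in input to 76.5 in IgG and 80.3 and 79.1 in the IP. On this scale the IgG array held Cpeb2 above input, which the log2 values did not show. Cpeb3 was at 65.8 in input, 55.8 in IgG and 59.99 and 61.97 in the IP. Cpeb1 was at 24.4, 28.0, 23.6 and 24.0 in the same order. A percentile follows 1 gene over the arrays and does not compare the amounts of different transcripts.

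Rescaling the arrays kept both IP arrays of Cpeb2 and Cpeb4 above both controls but moved the sizes. After quantile normalization of the 4 arrays again, Cpeb4 stood 0.35 over IgG (limma adjusted p = 0.0261) and 0.65 over input (adjusted p = 0.0382). With array medians equalised it stood 0.82 over IgG (adjusted p = 0.00448) and 0.49 over input (adjusted p = 0.0267). Cpeb2 stood 0.33 over IgG after quantile normalization again (limma adjusted p = 0.0749), while over input it was at 0.80 (adjusted p = 0.0489). With medians equalised Cpeb2 stood 1.14 over IgG (limma adjusted p = 0.00458), where the median of all tested genes moved to 0.41, and 0.76 over input (adjusted p = 0.023). Cpeb3 passed over IgG with medians equalised (0.48, limma adjusted p = 0.0298) but not after quantile normalization again (0.36, adjusted p = 0.0817), and its value against input stayed between -0.39 and -0.44. The size of a difference from input therefore moved less with the scaling than that from IgG for Cpeb2, Cpeb3 and Cpeb4.

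**Figure D4:**
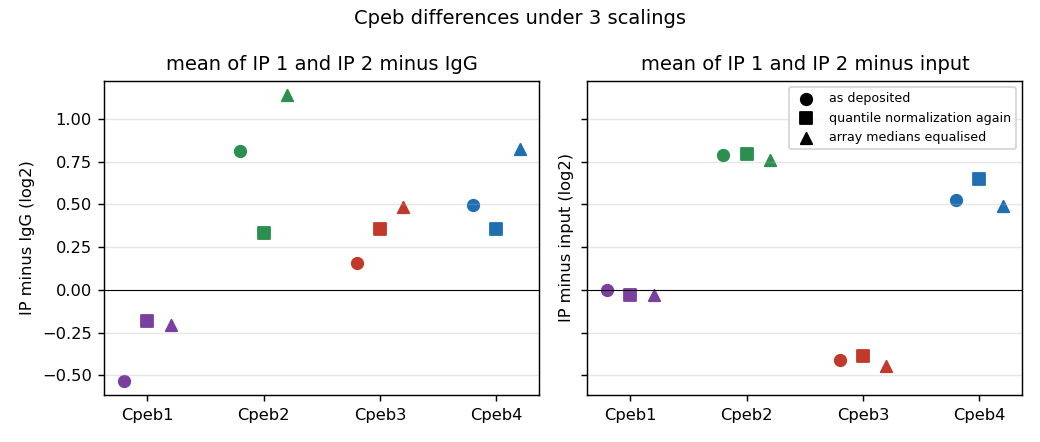
Mean of the 2 IP replicates minus IgG (left) and minus input (right), in log2 units, for the 4 Cpeb genes with values as deposited (circles), after quantile normalization of the arrays again (squares) and with array medians equalised (triangles). Cpeb2 spans 0.33 to 1.14 against IgG and 0.76 to 0.80 against input.

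The calls of Cpeb4 depended on how the spread was estimated. With a trended, robust prior limma no longer called it against IgG (adjusted p = 0.0504) or input (adjusted p = 0.0733), with no filter it no longer called it against input (adjusted p = 0.0597), and with IgG and input as 1 group the value was 0.51 (adjusted p = 0.533). Cpeb2 passed against IgG with a stricter filter (limma adjusted p = 0.0499).

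The summed level of the markers of 5 other cell types was higher in both IP arrays than in either control, though for macrophages and endothelium few of the markers were. As log2 of the summed linear values of each list, neutrophil markers stood at 9.32 in input, 10.55 in IgG and 11.23 and 11.22 in the IP, and 4 of 6 had both IP arrays above both controls. Megakaryocyte markers stood at 9.73, 10.39, 11.12 and 11.24 (5 of 5 higher), hepatocyte markers at 6.67, 7.52, 8.73 and 8.94 (6 of 6), macrophage markers at 6.72, 7.18, 8.11 and 8.39 (2 of 6) and endothelial markers at 6.36, 6.48, 7.43 and 7.20 (1 of 5), where 20.5% of all tested genes were. Some margins were small, as for Gp1bb (6.18 in IP replicate 1, 6.17 in input) and Fgb (3.91 in IP replicate 2, 3.89 in IgG). The lists also hold markers too low to be tested, such as Fgb. Alb and Afp were the largest terms of the hepatocyte sum in the IP. Erythroblast markers stood at 14.06, 13.60, 13.69 and 13.69, and 0 of 8 were higher in both IP arrays than in both controls. No marker has a value of 0 on this scale, but Cd163 and Mrc1 of macrophages, Fgb of hepatocytes and Cdh5, Kdr, Tek and Emcn of endothelium lay below the array median on all 4 arrays. For the 5 other cell types the summed level was also higher in IgG than in input. These arrays compare precipitates with their controls, so a higher marker level in the IP does not show that such cells were more numerous. Cell number, RNA per cell and RNA carried along in a precipitation cannot be told apart here. The part of these cells in the differences of Cpeb2 and Cpeb4 was not tested.

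The genes with a pattern nearest to each tested member were found by the root mean square difference over the 4 arrays, after each gene's own mean was subtracted. For Cpeb4 they were Pdia6 (0.0145), Emp3 (0.0172), Dennd11 (0.021), Rasgef1b (0.0221) and Pkd1 (0.0224). These 5 stood 0.45 to 0.52 over IgG and 0.49 to 0.55 over input. For Cpeb2 they were Irf2bp2 (0.0193), Mbnl1 (0.0371), Tacc1 (0.0382), Apobec1 (0.0409) and Commd7 (0.0471). These stood 0.75 to 0.91 over IgG and 0.71 to 0.82 over input. For Cpeb3 they were Msh3 (0.0188), Mief1 (0.0223), Zfp142 (0.0255), Chtf8 (0.0309) and Atxn2 (0.032), with 0.14 to 0.20 over IgG and -0.48 to -0.39 from input. Between members the difference was 0.156 for Cpeb2 and Cpeb4, 0.385 for Cpeb3 and Cpeb4 and 0.513 for Cpeb2 and Cpeb3, so Cpeb2 and Cpeb4 were the most alike pair in the family, though the 5 genes named for each were nearer. With 4 arrays, near patterns are a description of these samples.

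As deposited, partners of CPEB proteins in polyadenylation and repression had a positive difference from IgG in 20 of 23 tested genes and from input in 13 of 23, where 54.4% and 41.6% of all tested genes did. Of 27 such genes 25 were on the array as analysed here and 23 were tested, which leaves out Eif4e1b and Pabpc1l as too low. Against IgG 9 rose and 1 fell, where 29.2% and 17.2% of tested genes did, with a median difference of 0.73 where all tested genes had 0.08. The IP arrays were tied in 2 of these 10 calls, Wdr33 (0.08) and Tob1 (0.73), and 2 calls, Wdr33 and Tob2, were under 1.5-fold. The median level of these partners was 7.56, and the group of genes around a mean level of 7.62 had a median of 0.88 and a lower quartile of 0.28, so 0.73 is not above what genes of that level showed. Against input 4 rose and 3 fell, where 9.39% and 13.3% of tested genes did, with a median of 0.04 where all tested genes had -0.01 and that group had -0.10. Of these 7 calls 2 had tied IP arrays and 4 were under 1.5-fold. After quantile normalization again 8 rose and 6 fell against IgG (median 0.25) and 4 rose and 1 fell against input, and with medians equalised 21 rose against IgG and 5 rose and 6 fell against input. The sign of the difference from IgG changed for 9 of the 23 in 1 or other of these scalings, and that from input for 0. Parn, Fip1l1, Sympk, Cpsf4, Eif4g3, Wdr33 and Cpsf3 turned negative from IgG after quantile normalization again. That median of 0.73 went with a median of -0.70 for the same genes in IgG minus input.

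Among these partners, Lsm14a, a P-body protein that helps repress stored mRNAs, was the highest by the mean of both differences and against IgG, while against input Pabpc1, Cnot7 and Eif4e stood higher (1.02, 0.91 and 0.74). Its values were 8.85 in input, 7.10 in IgG and 9.44 in each IP array. Both IP arrays were above both controls, and Lsm14a rose by 2.34 over IgG and 0.60 over input (limma adjusted p = 0.00629 and 0.0164). Eif4e, the cap-binding factor whose access to the cap repressors block, had 4.69 in input, 3.82 in IgG and 5.61 and 5.26 in the IP. Cnot7, a deadenylase of the CCR4-NOT complex, had 8.26, 7.61 and then 9.004 and 9.33. Both were above both controls on each IP array, but with an SD of 0.25 and 0.23 between the IP replicates neither passed, with limma adjusted p of 0.0884 and 0.0861 against IgG. Besides Lsm14a, Patl1, a decapping factor, and the poly(A) polymerase gene Tent4b rose over both controls, by 1.18 and 0.49 and by 0.76 and 0.47 over IgG and input. After quantile normalization again they stood 0.46 and 0.03 over IgG. Patl1, Tent4b and Pabpc1, the main poly(A)-binding protein gene, are named after their values were seen.

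At the low end of the partners, Eif4enif1, which keeps eIF4E from the cap, had 8.83 in input and 8.13 in IgG and in both IP arrays. It fell by 0.70 from input (limma adjusted p = 0.0164), a call that rests on an IP spread of 0, and the IP arrays equalled IgG. Tob2, an adaptor that brings deadenylases to mRNAs, had 6.58 in input, 6.43 in IgG and 6.16 and 6.17 in the IP. It fell by 0.42 from input (limma adjusted p = 0.0289) and by 0.27 from IgG (adjusted p = 0.0253), though with medians equalised it stood 0.06 above IgG. Tacc3, related to a frog protein that links CPEB to eIF4E, differed by -0.51 from input and by -0.17 from IgG (0.16 with medians equalised) and passed in neither. In all, 12 of the 23 partners had both IP arrays above both controls, where 20.5% of tested genes did, and 2 had both below, where 11.9% did. The share among genes of the partners' level was not computed, and such genes mostly stood above IgG (lower quartile 0.28 around a mean level of 7.62). Of the 12, Eif4g3 cleared the controls by 0.003 in IP replicate 1. After quantile normalization again Parn, Sympk and Eif4g3 of the 12 stood at -0.08, -0.35 and -0.69 from IgG.

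The 3 regulators of the family that passed the test against input, of 11 tested, were lower in the IP. Of 15 genes listed, kinases, ubiquitin ligase subunits, a phosphatase and transcription factors among them, 11 were analysed here and all 11 were tested. Against input 3 fell (Cdk1, Plk1 and Btrc), where 13.3% of tested genes did, and 0 rose in limma, with 6 lower and 0 higher at an unadjusted p below 0.05 and 6 lower and 0 higher by the common spread, which called 22.3% of tested genes lower. Their median was -0.50, where all tested genes had -0.01. The median level of these regulators was 8.26. The group of genes around a mean level of 8.07 had a median of -0.19 and a lower quartile of -0.64. The -0.50 thus lies below that median but above that quartile. Against IgG 4 rose and 1 fell (Camk2a, whose IP arrays were tied), which is near the 29.2% and 17.2% of all tested genes. The median from IgG was 0.69, where the group of that level had 0.81, and it went with -1.18 in IgG minus input. After quantile normalization again 2 rose and 2 fell against IgG and 5 fell against input, and with medians equalised 9 rose against IgG and 6 fell against input.

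Ppp1ca, a catalytic subunit of protein phosphatase 1, was the highest of the regulators by the mean of both differences and against IgG, though not against input, at 9.71 in input, 7.92 in IgG and 9.57 and 9.58 in the IP. It rose by 1.66 over IgG (limma adjusted p = 0.00638) and differed by -0.13 from input (adjusted p = 0.0759). Stat5b, a transcription factor downstream of the erythropoietin receptor whose protein binds Cpeb3, was at 1.14 and 0.27 over IgG and input, and Fbxw11, a ubiquitin ligase subunit, at 0.95 and 0.17, and neither passed. At the other end Gata1, the master transcription factor of the red cell lineage, had 10.04 in input, 8.77 in IgG and 8.56 and 8.71 in the IP. Its difference from input was -1.40, with the IP arrays near IgG, and did not pass (limma adjusted p = 0.0672). Aurka, a kinase that phosphorylates Cpeb1, differed by -1.56 from input (limma adjusted p = 0.0776) and by 0.71 from IgG (adjusted p = 0.109), a value that turned to -0.02 after quantile normalization again. Btrc, a ubiquitin ligase subunit, fell by 0.75 from input (limma adjusted p = 0.0164) and rose by 0.43 over IgG (adjusted p = 0.00754), but stood at -0.29 from IgG after quantile normalization again.

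Among 23 mRNAs reported to be controlled by CPEB proteins, 21 were analysed here and 15 were tested. Mos, Btg4, Sycp1, Gria1, Gria2 and Egfr were too low. Against IgG 6 rose and 2 fell, where 29.2% and 17.2% of tested genes did, and against input 1 rose and 6 fell, where 9.39% and 13.3% did. The IP arrays were tied in 4 of the 8 mRNAs called against IgG and in 3 of the 7 called against input. Differences under 1.5-fold made up 3 and 4 of these calls. The 2 that fell against IgG, Gdf9 (-0.05) and Fbxo43 (-0.09), were both tied and under 1.5-fold. The median differences of the 15 tested mRNAs were 0.32 from IgG and -0.20 from input, with -0.85 in IgG minus input. Their median level was 8.31. The group of genes around a mean level of 8.07 had medians of 0.81 from IgG and -0.19 from input. Thus -0.20 is close to what genes of that level showed. The 0.32 is below the 0.81 of that group, but the list reaches down to the lowest of the 20 groups. There the median from IgG was -0.36, so the 0.32 does not show that these mRNAs were low for their levels. Both IP arrays lay above both controls for 3 of the 15, Hif1a, Myc and Vegfa, a share like the 20.5% of all tested genes. After quantile normalization again 7 rose and 2 fell against IgG and 1 rose and 5 fell against input, and with medians equalised 12 rose against IgG and 1 rose and 6 fell against input.

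Myc, the growth-promoting transcription factor, was the one that rose over both controls. It had 8.03 in input, 8.32 in IgG and 8.93 and 8.92 in the IP, which is 0.90 over input (limma adjusted p = 0.0167) and 0.61 over IgG (adjusted p = 0.00987), but -0.04 from IgG after quantile normalization again. Hif1a, the oxygen-sensing transcription factor and a reported target of Cpeb2, had 7.71 in input, 4.79 in IgG and 7.85 and 7.92 in the IP. It rose by 3.10 over IgG (limma adjusted p = 0.011) and stood 0.18 over input (adjusted p = 0.233), so the difference from IgG went with the low IgG value. Wee1, a kinase that holds back mitosis, rose by 2.41 over IgG (limma adjusted p = 0.00723) and fell by 0.68 from input (adjusted p = 0.0335).

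Tpx2, Ccnb2 and Kif11 were the lowest of these mRNAs by the mean of both differences. Tpx2, a spindle assembly factor, had 9.40 in input, 8.05 in IgG and 7.83 and 7.95 in the IP. Its difference from input was -1.51, which did not pass (limma adjusted p = 0.0573). Ccnb2, a mitotic cyclin, differed by -1.27 from input (limma adjusted p = 0.0755), and Kif11, a spindle motor, fell by 0.87 from input (adjusted p = 0.0164). Kif11 rose by 0.32 over IgG (limma adjusted p = 0.00902), and was at -0.19 after quantile normalization again. Both calls of Kif11 rest on an IP spread of 0, since its IP arrays gave the same value of 9.23. The IP arrays of Tpx2 and Ccnb2 were not tied, with an SD of 0.09 and 0.10.

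**Figure D5:**
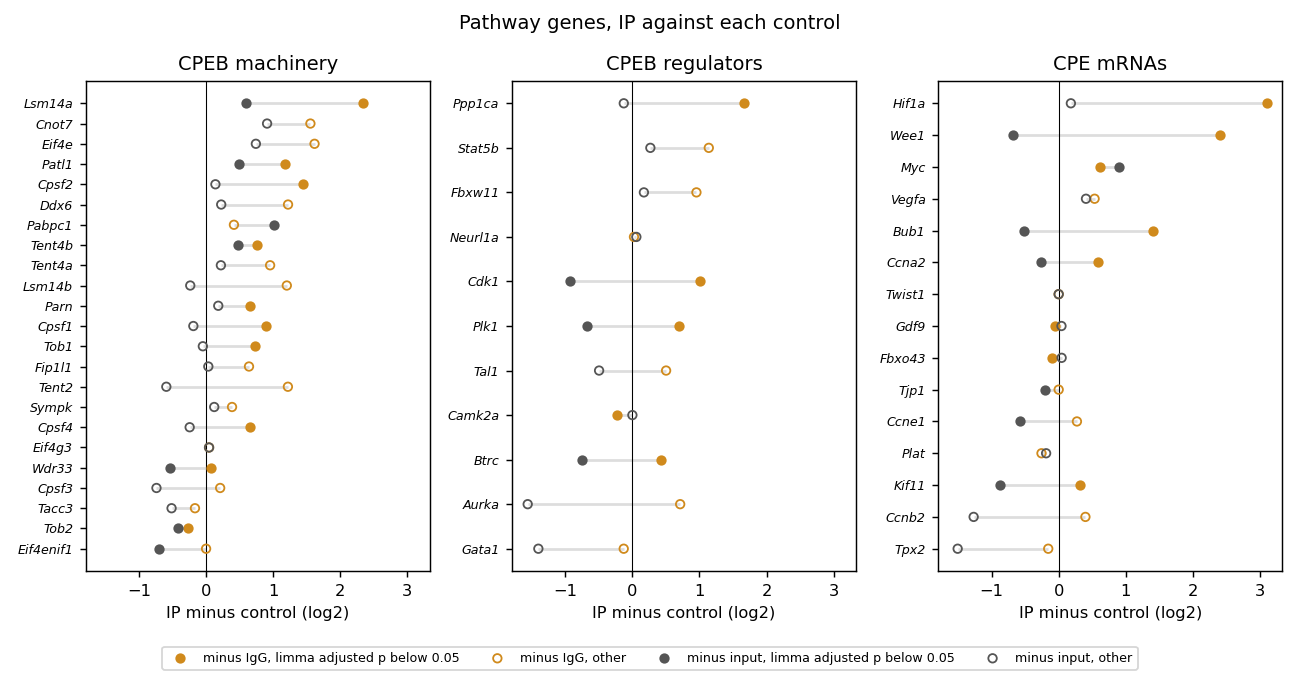
IP minus IgG (orange) and IP minus input (grey) in log2 units for each tested gene of 3 lists, polyadenylation and repression partners of CPEB proteins (left), regulators of the family (middle) and mRNAs reported to be under CPEB control (right). Filled points have a limma adjusted p below 0.05. Lsm14a is the partner with the highest orange point and Pabpc1 that with the highest grey point, no regulator has a filled grey point above 0, and Myc is the one mRNA on the right with both points filled and above 0.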

How the data were processed

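The authors deposited a log2 expression value for each probe set on each array, and per the submitters' processing notes RMA and the affy package were used. Versions, probe definition and filters are not given in the sources used here. Probe sets are named by Entrez gene, 23185 had a symbol in the array's annotation table, and all 4 columns were used. The filter kept genes whose average was at or above the 40th percentile among named genes. The 3 groups were fitted together in limma 3.58.1 (R 4.3.3, functions lmFit and eBayes) with 1 degree of freedom left for the spread and Benjamini-Hochberg adjustment over 13911 genes. IP arrays were tied in 3032 tested genes (21.8%), and limma's prior spread was small (SD 0.00621). How far the ties set that spread or the number of calls was not tested. The common-spread test took 1 IP spread per 20th part of the genes by level (SD 0.0663 to 0.201) and a normal distribution. The code for both was checked on simulated data without ties, which does not show how they behave with them. An exact permutation of 2 arrays against 1 cannot go below p = 0.667 when its 1-sided p is doubled. The number of arrays limits the precision.

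Named were the 4 Cpeb genes, the 3 highest and 3 lowest tested members of each list by the mean of both differences, and the 5 nearest patterns per member. Members and lists were chosen with earlier results of these data known. No probe or transcript sequences were used here, so cross-hybridisation between family members was not tested.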

Additional observations from a re-analysis of the deposited data

How the results depend on the processing

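The directions of Cpeb2 and Cpeb4 against both controls held under all alternatives run. Cpeb2 passed with the common spread (0.81 over IgG, 0.79 over input) and at an adjusted p below 0.1 (0.0580 and 0.0915), against IgG with the 60th percentile filter (0.81) and against both with medians equalised (1.14 and 0.76), and against input after quantile normalization again (0.80). Cpeb4 no longer passed with a trended, robust prior (0.50 and 0.52), with no filter against input (0.52) and with IgG and input as 1 group (0.51). Cpeb3 minus IgG was 0.48 and passed with medians equalised, and was -0.13 with 1 control group. Cpeb1 minus IgG was -0.53 and passed with no filter, and was -0.18 after quantile normalization again and -0.21 with medians equalised. Cpeb1 minus input was -0.028 and -0.033 in these 2 settings. In IgG minus input Cpeb2 turned to 0.46 after quantile normalization again and Cpeb4 to -0.33 with medians equalised. Without 1 IP replicate, Cpeb4 stood at 0.48 to 0.51 over IgG and 0.51 to 0.54 over input, and Cpeb2 at 0.76 to 0.87 and 0.73 to 0.85.

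Over all genes, 4061 were called above IgG and 2392 below (62.9% upward), and 1306 above input and 1845 below. Below IgG the count was 4885 with no filter (44.6% upward), 927 with the 60th percentile filter (81.3%) and 4017 after quantile normalization again (51.7%). With medians equalised 7833 were above IgG (80.2% upward) and 2804 below input. Against input the common spread called 2046 above and 3106 below, no filter gave 51.8% upward in place of 41.4%, and an adjusted p below 0.1 gave 2068 above. With IgG and input as 1 group limma called 0 genes in either direction (1112 at an unadjusted p below 0.05). IgG was at least 2-fold above input for 1103 genes and below for 3329. Above, the count was 508 with medians equalised, 2623 at 1.5-fold and 143 at 4-fold, and below it was 1938 after quantile normalization again, 5039 at 1.5-fold and 748 at 4-fold. No paired analysis was possible because IgG and input are 1 array each. Without an IP replicate no residual degree of freedom is left, so those are values with no test.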
